A study of Mus musculus with 4 samples.

Results

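The keratins of basal, luminal and stressed epithelium described here were 10 genes (Krt5, Krt6a, Krt7, Krt8, Krt14, Krt15, Krt16, Krt17, Krt18 and Krt19), of which 9 had a row of their own among the 30142 genes named on the array. Krt6a was the exception, since its only row is shared with Krt6b. A gene's row was to be selected on the highest mean signal over the arrays, but each of the 9 genes had 1 row, so brightness decided nothing. The genes themselves were chosen with the differences between the arrays labelled shMCT-1 and the NC arrays in view, so these differences are given as a description.

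RNA levels were read on Affymetrix arrays in 4T1 cells, a mouse mammary carcinoma line used as a model of metastatic triple-negative breast cancer. There were 2 arrays of cells labelled shMCT-1, in which a short hairpin RNA against MCT-1 was introduced and clones were selected with puromycin, and 2 arrays of cells with a scramble control (NC). The series' design text calls the arrays of each group independent biological replicates, without saying whether they were separate clones or cultures of 1 clone, and the spread between 2 arrays may be partly technical. All the cells were grown in the same serum-containing medium, and the labels do not say whether the NC cells also saw puromycin. The design asks how the expression profile of shMCT-1 cells differed from that of NC cells.

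Keratins are the intermediate filament proteins of epithelial cells. A type I (acidic) keratin pairs with a type II (basic) keratin, and the pair assembles into filaments that are anchored at desmosomes and hemidesmosomes. Krt5 and Krt14 are the pair of basal and myoepithelial cells, Krt8 and Krt18 the pair of simple and luminal epithelium, where Krt7 and Krt19 are also found, and Krt6a, Krt16 and Krt17 are raised in wounded, inflamed or otherwise stressed epidermis. In the mouse, most type I genes lie together on chromosome 11 and the type II genes lie together on chromosome 15, next to Krt18, the type I gene that is the exception.

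Before any keratin, the targeted transcript was examined. Mcts1, which encodes MCT-1, gave log2 signals of 7.81 and 7.89 on the arrays labelled shMCT-1, against 7.86 and 8.05 on the NC arrays. The groups overlapped, with a log2 difference of -0.10 (SE 0.122, 95% interval -0.42 to 0.22, adjusted p = 0.945 in limma), so a lower level was not detected. The difference was -0.20 without NC replicate 1 and -0.01 without NC replicate 2. Every direction below is that of the arrays labelled shMCT-1 relative to NC. NC replicate 1 stood furthest apart. It was over 1 log2 unit away from shMCT-1 replicates 1 and 2 in 609 and 1965 rows and from its fellow NC array in 830, while NC replicate 2 was as far from shMCT-1 replicates 1 and 2 in 311 and 266 rows. Values without that array are given beside many of the differences. The epithelial markers Epcam, Cdh1, Cldn4, Krt8 and Krt18 lay between 12.52 and 16.86 on the arrays labelled shMCT-1 and between 12.36 and 17.21 on the NC arrays. Of these, Krt8 and Krt18 are also among the keratins described here.

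Among the 9 keratins, Krt14, Krt16, Krt17 and Krt19 were lower on the arrays labelled shMCT-1, by between 1.68- and 3.21-fold, while Krt5, Krt7, Krt8 and Krt18 differed by at most 0.10 log2 units and Krt15 by -0.16. The lower genes included keratins of basal cells (Krt14), of stress (Krt16 and Krt17) and of luminal cells (Krt19), and all 4 were type I genes of chromosome 11. Of the 9 genes, 8 were lower and 1 was higher, against 45.8% and 54.2% of all genes. Both arrays labelled shMCT-1 lay below both NC arrays for 5 of the 9 genes and above them for 1, against 16.0% and 19.0% of all genes. Arrays that did not overlap and signal at least 1.5-fold lower were found for 4 of the 9, against 1.09% of all genes, and at least 1.5-fold higher for 0, against 0.607%. Signal at least 1.5-fold lower at an unadjusted p under 0.05 was met by 4 of the 9, against 0.829% of all genes, and at least 1.5-fold higher by 0, against 0.461%. Since the genes were chosen with these values known, nothing is read from those shares. After adjustment over all 65956 rows with limma, 0 of the 9 keratins and 0.0% of all rows passed, while 3698 rows (5.61%) had an unadjusted p under 0.05. In cultured cells measured in bulk, fewer cells making a keratin and less keratin RNA per cell cannot be told apart.

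**Figure D1:**
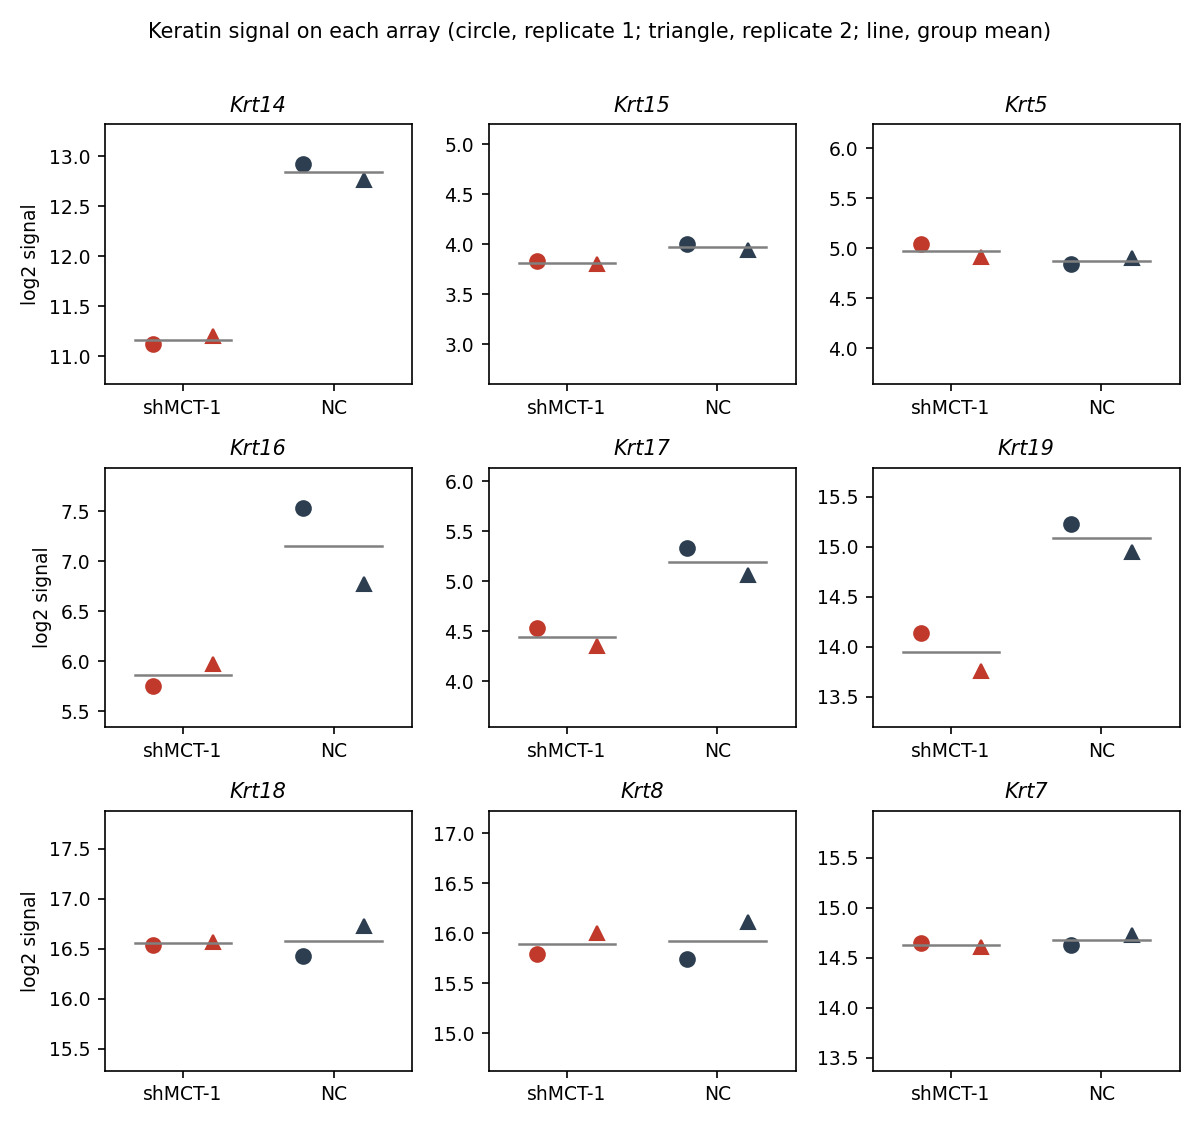
Log2 signal (y axis) of each keratin on the 2 arrays labelled shMCT-1 (red, left) and the 2 NC arrays (dark blue, right). Circles are replicate 1, triangles replicate 2, lines group means, and every panel spans the same number of log2 units. Krt14, Krt16, Krt17 and Krt19 are lower on both arrays labelled shMCT-1, and Krt18, Krt8 and Krt7 overlap between the groups.

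Krt14, the type I keratin of basal and myoepithelial cells, had the largest difference of the basal keratins. Its log2 signal was 11.12 and 11.20 on the arrays labelled shMCT-1, against 12.92 and 12.76 on the NC arrays. The lower NC array was 1.56 log2 units above the higher array labelled shMCT-1, whereas the replicates differed by 0.08 within shMCT-1 and by -0.16 within NC (replicate 2 minus replicate 1). The log2 difference was -1.68 (SE 0.118, 95% interval -1.99 to -1.37), which placed Krt14 22nd from the lowest among 30142 genes. It ranged from -1.76 to -1.60 with 1 array left out, and its adjusted p was 0.669 in limma, with 0.275 to 1.0 over the alternative settings.

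Krt5, the type II partner of Krt14 in basal cells, did not share that difference. Its signal was 5.04 and 4.91 on the arrays labelled shMCT-1, against 4.84 and 4.90 on the NC arrays. The arrays did not overlap, but the groups were nearly in contact and the log2 difference of 0.10 (SE 0.113, 95% interval -0.19 to 0.40) was smaller than the replicate difference of -0.14 within shMCT-1. Krt15, a further type I keratin of basal cells and hair follicle stem cells, was at 3.83 and 3.80 on the arrays labelled shMCT-1, against 4.00 and 3.94 on the NC arrays. Its arrays did not overlap either, with a log2 difference of -0.16 (SE 0.104, 95% interval -0.43 to 0.12). The rows of both genes were dim, at percentiles 71.0 for Krt5 and 56.0 for Krt15 of all rows by mean signal.

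Among the stress keratins, Krt16 was 2.45-fold lower on the arrays labelled shMCT-1. Krt16, a type I keratin induced at wound edges and in hyperproliferative epidermis, gave 5.75 and 5.97 on the arrays labelled shMCT-1, against 7.53 and 6.77 on the NC arrays. The groups were 0.80 log2 units apart, hardly more than the difference of -0.75 between the NC replicates. The log2 difference of -1.29 (SE 0.275, 95% interval -2.01 to -0.57) was -0.91 without NC replicate 1 and -1.67 without NC replicate 2. Krt16 was also the gene that dropped out of the group with an unadjusted p under 0.05 when shMCT-1 replicate 1 was left out (unadjusted p = 0.0517 in limma, 3 of 9 keratins remaining).

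Krt17, a type I keratin of basal appendage cells that is also induced by injury, gave 4.53 and 4.35 on the arrays labelled shMCT-1, against 5.33 and 5.06 on the NC arrays. Both arrays labelled shMCT-1 were lower, with a gap of 0.53 log2 units against replicate differences of -0.17 within shMCT-1 and -0.27 within NC. The log2 difference was -0.75 (SE 0.145, 95% interval -1.13 to -0.37), and -0.62 without NC replicate 1. Its row was as dim as that of Krt5, at percentile 70.0 by mean signal. Krt6a, the type II stress keratin that pairs with Krt16, could be read only through the row it shares with Krt6b, which gave 4.13 and 4.02 on the arrays labelled shMCT-1, against 3.93 and 4.11 on the NC arrays. That row was dim (percentile 59.7), its groups overlapped, and the 2 genes cannot be separated in it (log2 difference 0.06, SE 0.123, and -0.03 without NC replicate 1).

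The luminal keratins divided between Krt19 and the other 3. Krt19, the type I keratin that lacks most of the tail domain and is made by luminal and simple epithelia, gave 14.14 and 13.76 on the arrays labelled shMCT-1, against 15.23 and 14.95 on the NC arrays. The gap of 0.81 log2 units was larger than the replicate differences of -0.38 within shMCT-1 and -0.28 within NC. The log2 difference was -1.14 (SE 0.184, 95% interval -1.62 to -0.66), a 2.20-fold lower signal, and it ranged from -1.33 to -0.95 with 1 array left out. The adjusted p in limma was 0.882 for Krt16, Krt17 and Krt19 alike, and the lowest over the alternative settings was 0.275 for Krt19 and 0.313 for Krt16 and Krt17.

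Krt18, the type I keratin of simple epithelium, gave 16.54 and 16.57 on the arrays labelled shMCT-1, against 16.43 and 16.73 on the NC arrays. Krt8, its type II partner, gave 15.79 and 16.00 on the arrays labelled shMCT-1, against 15.74 and 16.11 on the NC arrays. For both genes the 2 NC arrays lay on either side of the arrays labelled shMCT-1, so the groups overlapped. The log2 differences were -0.02 for Krt18 (SE 0.142, 95% interval -0.39 to 0.35) and -0.03 for Krt8 (SE 0.171, 95% interval -0.48 to 0.42). Leaving out NC replicate 2 turned the sign of both, to 0.13 for Krt18 and 0.16 for Krt8, and Krt8 was at 0.08 without shMCT-1 replicate 1.

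Krt7, the type II keratin of glandular and ductal epithelium, gave 14.65 and 14.61 on the arrays labelled shMCT-1, against 14.63 and 14.73 on the NC arrays. Its groups overlapped, with a log2 difference of -0.05 (SE 0.107, 95% interval -0.33 to 0.23). The 95% intervals of Krt5, Krt7, Krt8 and Krt18 thus held 0, and none reached 0.5 log2 units in either direction. Krt7, Krt8 and Krt18 were bright rows, at percentiles 98.0, 98.8 and 99.2, and Krt19 was at percentile 97.9. The signals of Krt19 lay around those of Krt7, while Krt8 and Krt18 were brighter than Krt19 on every array.

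**Figure D2:**
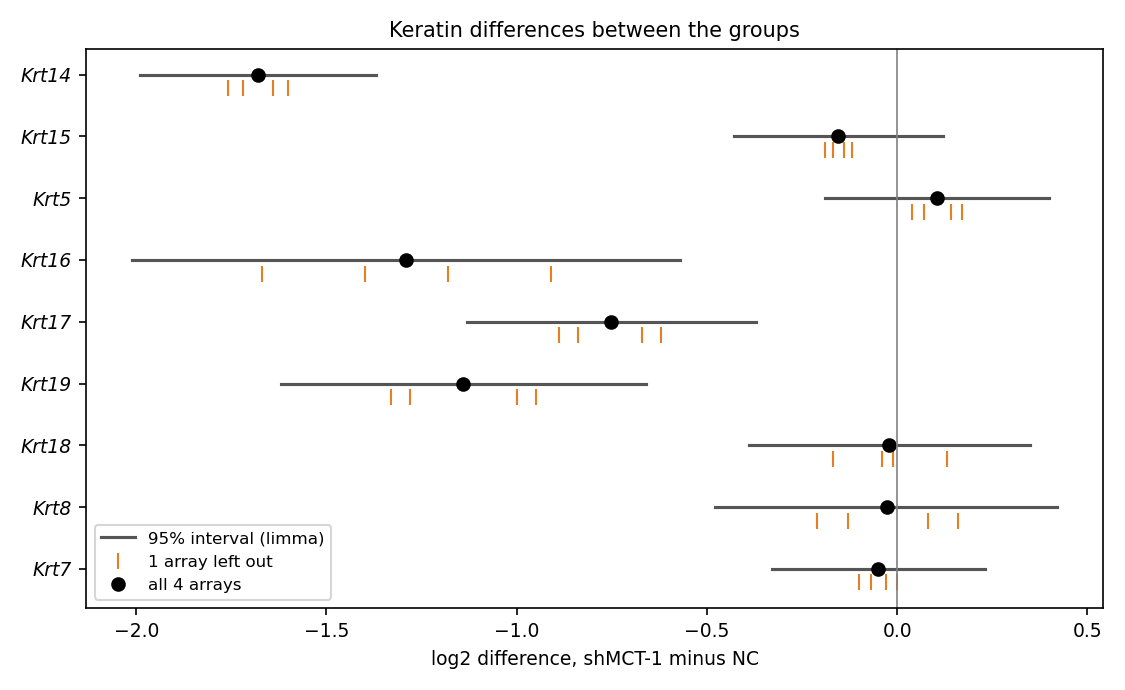
Log2 difference, shMCT-1 minus NC (x axis), for each keratin (y axis), with all 4 arrays (points), the limma 95% interval (lines) and the 4 values with 1 array left out (orange ticks). The 4 genes Krt14, Krt16, Krt17 and Krt19 stay below 0 with any array left out, and Krt18 and Krt8 change sign.

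The lower keratins were neighbours on chromosome 11. In the RefSeq order of protein-coding genes (GRCm38.p6), Krt15, Krt19, Krt9, Krt14, Krt16, Krt17 and Krt42 follow each other. Across the stretch of 17 genes from Krt31 to P3h4, 12 were keratins, and their log2 differences ran from -1.68 to 0.06. Krt9, a keratin of palm and sole skin that sits between Krt19 and Krt14, was at 0.06 (SE 0.102), with signals of 3.29 and 3.32 on the arrays labelled shMCT-1, against 3.24 and 3.25 on the NC arrays. Krt42, a type I keratin next to Krt17, gave 3.87 and 3.74 on the arrays labelled shMCT-1, against 4.14 and 4.05 on the NC arrays, a log2 difference of -0.29 (SE 0.114) between groups that did not overlap. The differences were uneven along the cluster, but the rows of Krt9 and Krt42 were dim, at percentiles 31.3 and 57.5 by mean signal. Such rows leave little room for a lower signal, so whether these genes differed from their neighbours cannot be read from them.

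Next to Krt42 lies Eif1, which had no row of its own, and then Gast. Gast was at -0.06 (SE 0.136) in overlapping groups, and at 0.06 without NC replicate 1. Further along, Jup, which encodes the desmosomal and junctional protein plakoglobin, gave 10.51 and 10.13 on the arrays labelled shMCT-1, against 11.18 and 10.71 on the NC arrays. Its log2 difference was -0.62 (SE 0.221), and -0.39 without NC replicate 1, a move of more than 1.5 times. P3h4, the next gene, was at -0.42 (SE 0.143) and -0.28 without that array, and Hap1, on the other side of Jup, was at -0.53 (SE 0.298) and -0.15 without it. None of these passed after adjustment (limma, adjusted p = 0.882 for Jup and P3h4, 0.897 for Hap1 and 0.98 for Gast). The median over 2139 genes of chromosome 11 was 0.013, close to the 0.0142 over all genes.

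On chromosome 15, the stretch of 33 genes from Nr4a1 to Spryd3 held 26 keratins, 21 of them measured, with log2 differences from -0.13 to 0.37. Apart from Krt7, Krt8, Krt18 and Krt80, these keratins had dim rows, at percentile 71.0 (Krt5) or below by mean signal. Most of the dim rows leave little room for a lower signal, so the range says little about them. The median over 1009 genes of that chromosome was 0.055. The difference between the keratins of the 2 chromosomes was seen in the data and was not tested. The chromosome 11 members had a median of -1.14 (-0.91 without NC replicate 1 and -1.28 without NC replicate 2), and the chromosome 15 members had a median of -0.025 (-0.14 and 0.13 without the same arrays).

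**Figure D3:**
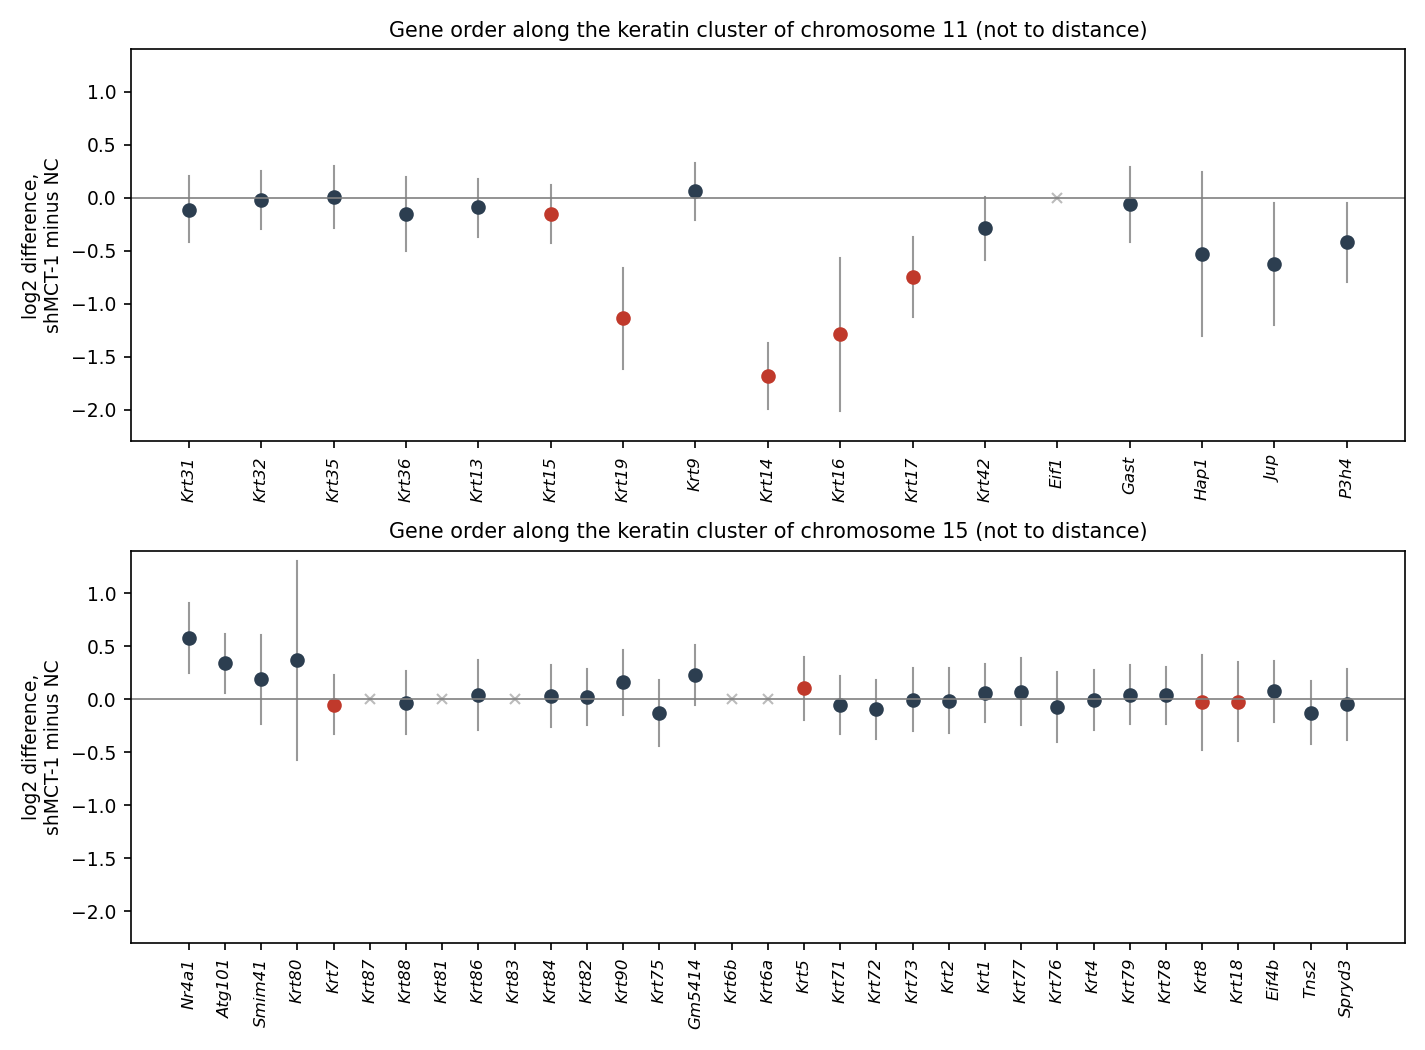
Log2 difference, shMCT-1 minus NC (y axis), with limma 95% intervals, for genes in their order along the keratin clusters of chromosome 11 (top) and chromosome 15 (bottom). Red points are the keratins described here, dark points other genes and crosses genes with no row of their own. The points of Krt19, Krt14, Krt16 and Krt17 lie below the others of the chromosome 11 stretch. No keratin of the chromosome 15 stretch is below -0.13, but most of its keratin rows are dim.

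The promoter windows of the 4 chromosome 15 keratins are shown because these genes gave close signals on all arrays. The row of Krt5, the partner of Krt14, was dim, which limits how far a lower signal could show. Each window runs from 250 bases before the annotated start to 20 bases from it, 5′ to 3′ on the gene's strand, from RefSeq on GRCm38.p6, with capitals marking matches to the motifs named after the sequences.
Krt5 (chr15:101712886-101713155, minus strand): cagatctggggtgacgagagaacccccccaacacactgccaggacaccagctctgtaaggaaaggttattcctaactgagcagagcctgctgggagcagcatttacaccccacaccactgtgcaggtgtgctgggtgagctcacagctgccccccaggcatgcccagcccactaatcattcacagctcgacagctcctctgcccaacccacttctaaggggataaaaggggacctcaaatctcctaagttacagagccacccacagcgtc
Krt7 (chr15:101412153-101412422, plus strand): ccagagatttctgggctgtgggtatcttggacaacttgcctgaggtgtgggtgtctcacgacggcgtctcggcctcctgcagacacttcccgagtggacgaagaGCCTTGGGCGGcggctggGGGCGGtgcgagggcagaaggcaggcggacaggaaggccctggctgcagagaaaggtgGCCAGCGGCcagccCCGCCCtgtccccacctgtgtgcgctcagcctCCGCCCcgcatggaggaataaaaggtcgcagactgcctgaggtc
Krt8 (chr15:102004323-102004592, minus strand): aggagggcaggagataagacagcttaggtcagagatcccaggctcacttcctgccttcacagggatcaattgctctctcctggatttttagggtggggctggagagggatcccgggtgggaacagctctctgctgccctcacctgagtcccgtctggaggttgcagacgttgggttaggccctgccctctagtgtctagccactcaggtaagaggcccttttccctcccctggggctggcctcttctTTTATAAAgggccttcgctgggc
Krt18 (chr15:102027966-102028235, plus strand): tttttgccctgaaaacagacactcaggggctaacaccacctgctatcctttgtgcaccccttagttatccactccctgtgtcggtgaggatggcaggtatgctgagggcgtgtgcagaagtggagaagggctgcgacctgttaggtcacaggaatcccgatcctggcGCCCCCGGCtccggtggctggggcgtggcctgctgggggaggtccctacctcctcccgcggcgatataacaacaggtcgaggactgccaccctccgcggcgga

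The motifs searched on both strands were the TATA box TATAAA, the AP-1 motif TGANTCA, the AP-2 motif GCCNNNGGC, the Sp1 and KLF motif GGGCGG, and the CCAAT box. Krt7 held 2 matches to the AP-2 motif and 4 to the Sp1 motif, and the first match of each motif shared bases with the other. Krt8 held matches to TATAAA on both strands in 1 stretch that crosses its annotated start, Krt18 held 1 match to the AP-2 motif, and Krt5 held 0 matches. Among 32851 promoter windows of this length, the TATA box was found in 12.9%, the AP-1 motif in 7.23%, the AP-2 motif in 14.8%, the Sp1 and KLF motif in 34.1% and the CCAAT box in 35.4%. The window listed for Krt14 starts 1480 bases inside the annotated span of the gene and is not shown, and Krt6a, Krt15, Krt16, Krt17 and Krt19 were not matched.

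Comparable differences were not seen among the other keratins, nearly all of which had dim rows. Of 43 further keratins listed, 38 had a row of their own, 16 of them lower and 22 higher, with a median log2 difference of 0.021 against 0.0142 over all genes. With limma 0 passed after adjustment, 0 had an unadjusted p under 0.05, and 0 differed by 1 log2 unit. Leaving aside Krt80, the other 37 had signals between 2.93 and 5.39 on all arrays. These rows were dim, at percentile 73.6 (Krt10) or below by mean signal. Most of them leave little room for a lower signal, so a lower level of these genes could hardly be seen. Krt80, a type II keratin that appears as epithelial cells differentiate, was the bright one, with 10.51 and 11.02 on the arrays labelled shMCT-1, against 9.93 and 10.86 on the NC arrays. Its groups overlapped, and its log2 difference of 0.37 (SE 0.359) turned to -0.09 without NC replicate 1. By the same rule, Krt36, a hair keratin, was at -0.16 (SE 0.133), and between -0.26 (shMCT-1 replicate 1 left out) and -0.05 (shMCT-1 replicate 2 left out). Leaving out NC replicate 1 gave -0.24 for Krt36, and leaving out NC replicate 2 gave -0.07. Krt90, a type II keratin, was at 0.16 (SE 0.117), with 0.07 without NC replicate 1 and 0.25 without NC replicate 2.

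Other intermediate filament genes did not pass either, with 9 of 15 lower, 6 higher and a median of -0.01 (-0.048 without NC replicate 1 and 0.040 without NC replicate 2). Vim, the mesenchymal filament protein vimentin, gave 15.12 and 15.88 on the arrays labelled shMCT-1, against 14.47 and 15.48 on the NC arrays. The groups overlapped, and the log2 difference of 0.52 (SE 0.424) was 0.02 without NC replicate 1. Nes, which encodes nestin, differed by 0.39 (SE 0.236), a value of 0.13 with that array left out.

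Genes that anchor keratin filaments at desmosomes and hemidesmosomes were more often lower than higher, with 14 of 19 lower and a median of -0.233 (-0.12 without NC replicate 1), although 0 passed after adjustment over all rows in limma. The arrays did not overlap for 8 lower and 3 higher genes, against 16.0% and 19.0% of all genes. At an unadjusted p under 0.05 there were 5 lower and 2 higher, against 5.61% of all rows in either direction. The lower ones were Jup, Pkp3 (plakophilin, log2 difference -0.36), Ppl (the cornified envelope plakin periplakin, -0.47), Cd151 (a tetraspanin of hemidesmosomes, -0.49) and Perp (a desmosomal membrane protein, -0.48). The higher ones were Dsc2 and Pkp4 (0.28).

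Of the desmosomal cadherins, Dsg2 and Dsg3 were lower and Dsc2 was higher, while Dsc3 was dim and at -0.06 in overlapping groups. Dsg3, the desmoglein of basal and suprabasal epidermis, gave 5.54 and 5.06 on the arrays labelled shMCT-1, against 7.40 and 5.83 on the NC arrays. Its log2 difference of -1.31 (SE 0.542) rested largely on NC replicate 1, without which it was -0.53. Dsg2, the desmoglein of simple epithelium, differed by -0.64 (SE 0.266), a value of -0.28 with the same array left out. Dsc2, a desmocollin, gave 4.95 and 4.66 on the arrays labelled shMCT-1, against 3.90 and 3.72 on the NC arrays. Its row was dim, at percentile 64.1 by mean signal. Both arrays labelled shMCT-1 were higher, by a log2 difference of 1.0 (SE 0.15, adjusted p = 0.882 in limma) that ranged from 0.86 to 1.15 with 1 array left out.

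**Figure D4:**
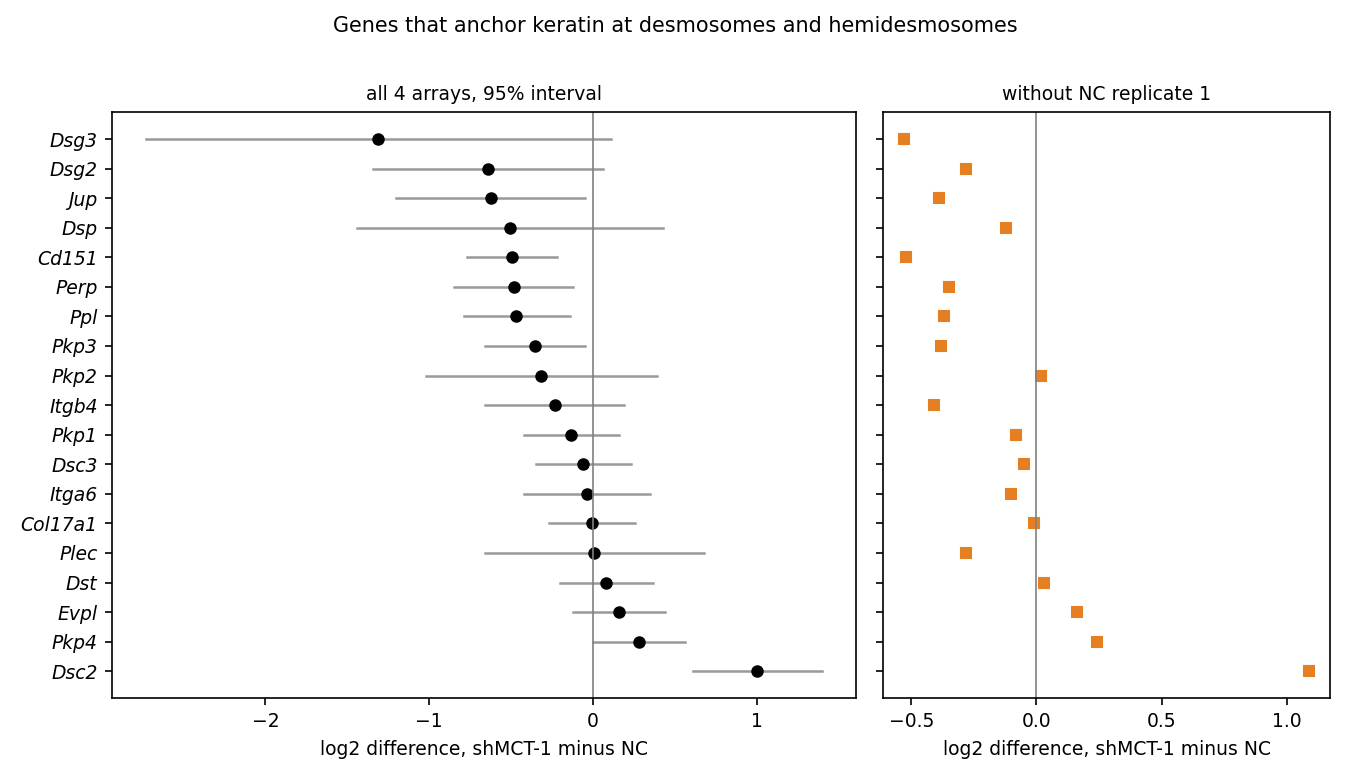
Log2 difference, shMCT-1 minus NC (x axis), of the 19 genes that anchor keratin at desmosomes and hemidesmosomes (y axis), with all 4 arrays and limma 95% intervals (left) and without NC replicate 1 (right, a narrower x axis). Dsc2 is the highest in both panels, and Dsg3 moves from -1.31 with all arrays to -0.53 without that array.

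Regulators of keratin and epithelial genes showed 12 of 22 measured members lower and 10 higher, with a median of -0.036 (-0.003 without NC replicate 1 and -0.055 without NC replicate 2) and 0 passing after adjustment in limma. Trp63, the p63 transcription factor of basal epithelium, was dim in both groups, at 3.30 on average on the arrays labelled shMCT-1 and 3.36 on the NC arrays. The AP-2 factors Tfap2a (-0.33, SE 0.124) and Tfap2c (-0.31, SE 0.11) were the 2 of 22 members with an unadjusted p under 0.05, against 5.61% of all rows. The row of Tfap2c was dim (percentile 59.1). The largest differences were those of Fosl1, a FOS-family subunit of AP-1, and Ehf, an epithelial ETS factor. Fosl1 gave 8.75 and 9.44 on the arrays labelled shMCT-1, against 7.68 and 8.62 on the NC arrays, and its log2 difference of 0.94 (SE 0.394) was 0.47 without NC replicate 1. Ehf differed by -0.67 (SE 0.328), a value of -0.23 with that array left out.

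Mammary lineage markers outside the keratins gave no single direction. Of 12 basal markers, 8 were lower and 4 higher, with a median of -0.037 (-0.095 without NC replicate 1 and 0.027 without NC replicate 2), and contractile myoepithelial genes were dim, with Acta2 at 3.79 on average on the arrays labelled shMCT-1 and 3.83 on the NC arrays. The largest differences among them were -0.34 (SE 0.125) for Cav1, the caveolar protein, and -0.23 (SE 0.163) for Itgb4, the hemidesmosomal integrin subunit, which was -0.41 without NC replicate 1 and -0.06 without NC replicate 2. Of 12 measured luminal markers, 5 were lower and 7 higher, with a median of 0.024 (0.088 without NC replicate 1 and -0.043 without NC replicate 2). The claudins Cldn3 and Cldn7 were higher on the arrays labelled shMCT-1, by 3.60 (SE 0.123, adjusted p = 0.106 in limma, 0.06 to 0.999 over the alternatives) and 1.66 log2 units (SE 0.121, adjusted p = 0.669 in limma), while Krt19, a luminal keratin, was lower on the same arrays. Some bright members of the same list lay the other way, with Cldn4, a further claudin, at -0.36 (SE 0.248) and Cdh1, the epithelial cadherin, at -0.30 (SE 0.164). Cd24a, a surface glycoprotein, was at -0.24 (SE 0.106). Without NC replicate 1 the values were -0.12 for Cldn4, -0.14 for Cdh1 and -0.29 for Cd24a. Epcam, also bright, was at 0.02 (SE 0.15) in overlapping groups, and Foxa1 was higher, at 0.26 (SE 0.105). Without that array Epcam was at 0.19 and Foxa1 at 0.29. The sign of Epcam turned to -0.15 without NC replicate 2. Esr1, the oestrogen receptor, was at -0.38 (SE 0.129), on a row nearly as dim as that of Krt5 (percentile 72.5).

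Genes that fold, modify or clear keratins were divided, with 4 of 9 measured members lower, 5 higher and a median of 0.038, whose sign turned to -0.008 without NC replicate 1. Sqstm1, the autophagy receptor p62, gave 13.59 and 13.34 on the arrays labelled shMCT-1, against 14.42 and 13.62 on the NC arrays, a log2 difference of -0.56 (SE 0.292) that was -0.15 without NC replicate 1. Sfn, the 14-3-3 sigma protein that binds keratins, was at 0.41 (SE 0.345), and its sign turned to -0.09 without that array.

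Markers of other cell types were mostly dim. The 4 measured fibroblast markers had signals from 2.92 to 3.93 on the arrays labelled shMCT-1, against 2.98 to 3.91 on the NC arrays, and the 4 measured lymphocyte markers from 2.80 to 3.61 on the arrays labelled shMCT-1, against 2.80 to 3.45 on the NC arrays. The 5 macrophage markers ranged from 3.11 to 9.11 on the arrays labelled shMCT-1, against 3.18 to 8.82 on the NC arrays, and 2 were lower and 3 higher. Cd14 was the bright one, at 9.11 and 8.67 on the arrays labelled shMCT-1, against 8.58 and 8.82 on the NC arrays. Csf1r, the receptor of a macrophage growth factor, had the largest difference of that list, with 5.27 and 4.47 on the arrays labelled shMCT-1, against 6.07 and 4.61 on the NC arrays. It was at -0.47 (SE 0.551), and its sign turned to 0.26 without NC replicate 1. Itgam, an integrin subunit of myeloid cells, was dim and at -0.07, with arrays that did not overlap. The 5 endothelial markers lay between 3.24 and 3.83 on the arrays labelled shMCT-1, against 3.13 and 4.24 on the NC arrays, and Cdh5 was the 1 of them with an unadjusted p under 0.05 (log2 difference -0.43, SE 0.106), against 5.61% of all rows. The mean endothelial marker signal was 3.42 and 3.37 on the arrays labelled shMCT-1, against 3.52 and 3.45 on the NC arrays. The part of these markers in the keratin differences was not tested.

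The genes with profiles most like those of Krt14, Krt17 and Krt19 were found by the root mean square distance between mean-centred log2 signals over the 4 arrays, and Krt16 was not searched. The search covered 11629 genes with a mean signal at or above that of the median row, without predicted genes, small RNAs and receptor or immunoglobulin segments. Nearest to Krt14 were the prolactin-family genes Prl2a1 (distance 0.101) and Prl2c2 (0.101), and B4galt6, a galactosyltransferase of sphingolipid synthesis (0.108). Prl2a1 gave 9.32 and 9.22 on the arrays labelled shMCT-1, against 11.22 and 10.88 on the NC arrays, and Prl2c2 gave 12.16 and 12.08 on the arrays labelled shMCT-1, against 13.90 and 13.53 on the NC arrays. Prl2c2 has near-identical gene copies, so its row is uncertain. B4galt6 gave 7.11 and 7.03 on the arrays labelled shMCT-1, against 8.95 and 8.53 on the NC arrays. Lower signals on both arrays labelled shMCT-1 follow from choosing genes by their likeness to Krt14, and are no separate result.

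Nearest to Krt17 were Fam110c (distance 0.00967), Dglucy, a mitochondrial D-glutamate cyclase (0.0282), and Nuak1, an AMPK-related kinase (0.0305). Nearest to Krt19 were Tubb2a, a beta-tubulin (0.0542), Nexn, an actin-binding protein (0.0981), and Itgb2, a leukocyte integrin subunit (0.108). Tubb2a gave 12.89 and 12.60 on the arrays labelled shMCT-1, against 14.04 and 13.65 on the NC arrays. With 4 arrays a close match is a description of these arrays.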

How the data were processed

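Arrays of 4T1 cells labelled shMCT-1 (2) and NC (2) were compared as the titles group them. The deposited values are log2 signals, as their range shows, made by the authors with RMA in Affymetrix Expression Console, per the submitters' processing notes. The sources used here name no version and no genome build. Of 65956 rows, 30604 had 1 gene symbol in the platform's probe table, 827 symbols were updated through gene IDs (GRCm38.p6), and every per-sample column was used.

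A linear model per row (limma 3.58.1, R 4.3.3, lmFit and eBayes) gave two-sided tests, Benjamini-Hochberg adjustment over all rows, 2 residual and 2.72 prior degrees of freedom, and a threshold of 0.05. On simulated data of 65956 rows, 0.8% of rows changed by 1 log2 unit and 72.4% of those changed by 2 were called. The simulated arrays were independent, unlike the same-numbered arrays here, and other rows in them were changed by up to 4 log2 units. These shares therefore need not hold for the present arrays. Arrays have no read depth, and their number limits the precision.

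The keratins, gene lists and motifs were chosen with earlier results of these data known. Named genes were the keratins, Mcts1, the 2 largest differences of each list and the 3 nearest profiles to Krt14, Krt17 and Krt19. Others named in the text, such as chromosome neighbours, members with an unadjusted p under 0.05 and markers, were picked with their values in view. The alternatives tried were another moderation or normalisation, a filter on dim rows, the replicate number as a block and each array left out.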

Additional observations from a re-analysis of the deposited data

How the results depend on the processing

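Under the alternatives, 0 rows and 0 of the 9 keratins passed the adjusted threshold in limma, with 3698 rows at an unadjusted p under 0.05 in the fit with all arrays. The median difference of the 9 keratins, -0.16, ranged from -0.21 to -0.14 with 1 array left out. The keratins with an unadjusted p under 0.05 and at least 1.5-fold lower signal numbered 4, and 3 without shMCT-1 replicate 1, as Krt16 then missed the threshold.

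Over all genes, 250 were lower and 139 higher by that rule. With 1 array left out, the lower ones ranged from 188 to 964 and the higher ones from 143 to 787, both highest without NC replicate 2. Without shMCT-1 replicates 1 and 2 the higher ones numbered 229 and 210. A block for the replicate number gave 486 lower and 243 higher genes. Same-numbered arrays deviated together (r = 0.419 across 65956 rows), which the labels do not call a pairing, and the block gave adjusted p-values of 0.275 for Krt14 and Krt19 and 0.313 for Krt16 and Krt17. The cause of these changes was not tested.

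Leaving out 1 array turned the sign of 4 of the 50 genes followed through the alternatives. Krt8 ranged from -0.21 to 0.16, Krt18 from -0.17 to 0.13, Krt80 from -0.093 to 0.832 and Sfn from -0.086 to 0.900. Genes outside those 50 also turned sign with 1 array left out, among them Gast, Csf1r, Epcam and the row shared by Krt6a and Krt6b. Each keratin described had 1 row, so averaging rows changed nothing. Dim rows and very bright rows limit what these signals can show.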
